A study of Caenorhabditis elegans with 4 samples.

Results

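The TAF-1 binding sites on chromosome IV of Caenorhabditis elegans embryos are described here. They were chosen as all rows of the series peak list placed on IV, which gave 489 of the 2987 peaks in that list. The list came from chromatin immunoprecipitation and sequencing (ChIP-seq) of mixed-stage embryos of the wild-type strain N2, from a mixed population of males and hermaphrodites at 20 °C. Embryos were fixed with 2% formaldehyde for 30 min and TAF-1 was precipitated with a rabbit polyclonal antibody that had been affinity-purified. The study has 2 ChIP libraries and 2 input DNA libraries from the same material. Peak lists were used for ChIP replicate 1, with 314 peaks on IV, for ChIP replicate 2, with 352, and for the series. Separate cultures are not stated for the replicates, so differences between them may be technical, and the embryos hold many cell types at many stages, so each peak is a signal over all of them.

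TAF-1 is the scaffold subunit of TFIID, the factor that binds core promoters and helps bring RNA polymerase II to them, and its binding sites are sought mainly at promoters. Chromosome IV stands out among the worm's chromosomes because it carries most of its piRNA genes. piRNAs are short RNAs bound by Piwi proteins, which in the worm germline mark foreign transcripts for silencing. Most worm piRNA genes are tiny, independent transcription units with their own upstream motif, and they crowd into broad clusters on IV. The clusters were taken as a left stretch from 4.5 to 7.0 Mb and a right stretch from 13.5 to 17.2 Mb, and all positions are on WormBase WS220. Which gene, exon, intron or promoter each peak touches was not analysed here, because no gene annotation on WS220 was used, and no peak sequence is printed for the same reason.

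The values per peak are its start, its end and the peak caller's score, which has no stated scale. Scores were therefore compared only within a list, apart from ranks set side by side. Series scores on IV ran from 1.39 to 184.55, with a median of 9.48 (quartiles 5.42 and 18.7). Replicate 1 scores ran from 50.03 to 3171.99, with 5 peaks at or above 3100. Replicate 2 scores ran from 50.2 to 3100, with 20 peaks at that ceiling. The lists hold no read counts, so the depth behind each peak is unknown. All intervals are 95% intervals for counting error over peaks, which share their libraries and, where they lie close together, are not independent.

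By series score, most of the 10 strongest TAF-1 sites of IV lay in its right stretch, which held 24.1% of all IV series peaks. Of the 10 highest-scoring series peaks, 6 lay in the right stretch, 1 in the left stretch and 3 in the rest of the chromosome. In replicate 1 the top 25% of scores took in 27.5% of the right-stretch peaks and 26.9% of those in the rest. For replicate 2 these shares were 35.2% and 22.9%. All 10 overlapped a peak in each replicate, and their median width was 700 bp against 236 bp for all IV peaks. The replicate 2 partner was at the ceiling of 3100 at 9 of them, and the replicate 1 partner at 3.

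The top site lay at 15561193 to 15561714, was 522 bp wide and scored 184.55, the highest value in the nuclear list, which 1 peak on II also reached. Its replicate 1 partner scored 1782.38, only rank 12 among the IV peaks of that library, and its replicate 2 partner scored 3100. The second, at 15058941 to 15059799, scored 142.88 in the series list and 3100 in both replicates. The third, at 15373841 to 15374781, scored 134.98, with 3007.77 in replicate 1 and 3100 in replicate 2. All 3 lay in the right stretch and outranked every site elsewhere on IV.

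Outside the stretches, the strongest site was an 860-bp peak at 8468477 to 8469336 with a series score of 132.07, which reached 3100 in both replicates. Near the right end of the chromosome, a 714-bp peak at 17278194 to 17278907 scored 131.53. It was the only member of the 10 whose replicate 2 partner stayed below the ceiling, at 1642.62. A peak at 2754667 to 2756613 scored 105.66 and spanned 1947 bp, and both replicates called it at nearly the same width or wider, with 1917 and 2705 bp. It was the leading site of the 4.5 Mb before the left stretch, called the left arm here.

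In the right stretch, 3 further sites belonged to the 10. The peak at 15895686 to 15896286 scored 116.26, and its replicate 1 partner had the same width of 601 bp. The peak at 14480383 to 14481068 scored 113.99 and lay at the end of a chain of sites described below. The peak at 13847248 to 13847648 scored 110.74, with 1581.05 in replicate 1.

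The left stretch had a single site of that rank, a 358-bp peak at 4784706 to 4785063 with a series score of 108.35, which scored 1792.33 in replicate 1 and 3100 in replicate 2. Its next strongest sites dropped off quickly. The peak at 4920613 to 4920951 scored 72.37, and that at 4749916 to 4750144 scored 42.93, rank 49 on IV. After its first site, the left stretch thus had none above 72.37.

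Whether the piRNA-rich stretches hold more or fewer TAF-1 sites than the rest of IV was asked with peak midpoints. The left stretch held 54 series peaks, 21.6 per Mb (16.2 to 28.2). The right stretch held 118, or 31.9 per Mb (26.4 to 38.2), and the rest of IV held 317, or 28.1 per Mb (25.1 to 31.3). The left stretch was at 0.77 times the density of the rest (0.57 to 1.03, two-sided exact binomial test, p = 0.080, adjusted p = 0.13 over 8 density tests), a difference that did not pass the threshold of 0.05. The right stretch was at 1.14 times the rest (0.91 to 1.41, exact binomial test, p = 0.24, adjusted p = 0.28), which did not pass either. The exact test takes peaks as independent.

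Relative to the rest of IV, the replicates placed both stretches differently. In replicate 1 the left stretch had 16.4 peaks per Mb against 17.1 in the rest, a ratio of 0.96 (0.67 to 1.35, exact binomial test, adjusted p = 0.87). In replicate 2 it had 14.4 against 21.7, a ratio of 0.66 (0.45 to 0.94, exact binomial test, p = 0.020, adjusted p = 0.053). For the right stretch the ratio was 1.27 in replicate 1 (0.96 to 1.65, exact binomial test, adjusted p = 0.16) and 0.88 in replicate 2 (0.67 to 1.16, exact binomial test, adjusted p = 0.54). The right stretch was thus denser than the rest in one library and sparser in the other, and neither difference passed the threshold. The rest includes the left arm, where replicate 2 had 29.8 peaks per Mb. Between the stretches, replicate 1 had 16.9 peaks per Mb and replicate 2 had 16.3. The right stretch lay above these in both, at 21.6 and 19.2 per Mb, with overlapping intervals. That comparison was made after seeing the values and was not tested.

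**Figure D1:**
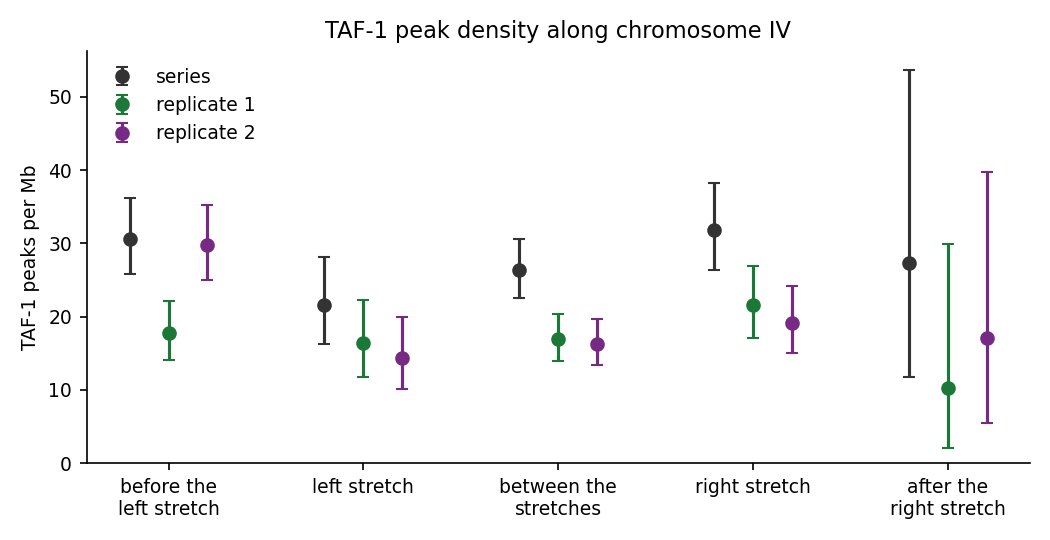
TAF-1 peaks per Mb in 5 consecutive segments of chromosome IV, for the series list and each replicate list, with 95% Poisson intervals as bars. Replicate 2 had 29.8 peaks per Mb before the left stretch against 16.3 between the stretches, while replicate 1 had 17.8 and 16.9; the last segment is only 0.29 Mb long.

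The replicates parted most on the left arm of IV. Before the left stretch, replicate 2 had 134 peaks, 29.8 per Mb (24.9 to 35.3), and replicate 1 had 80, 17.8 per Mb (14.1 to 22.1). Between the stretches they had nearly equal densities, 16.3 per Mb (13.4 to 19.7) and 16.9 per Mb (13.9 to 20.4). Most of the replicate 2 peaks of the left arm had no replicate 1 partner. Of the 166 replicate 2 peaks on IV without a replicate 1 partner, 79 lay before the left stretch (17.6 per Mb, 13.9 to 21.9). There were 15 in the left stretch (6.0 per Mb, 3.36 to 9.90), 44 between the stretches (6.77 per Mb, 4.92 to 9.09) and 26 in the right stretch (7.03 per Mb, 4.59 to 10.3).

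Shared replicate 2 peaks had 12.2 per Mb before the left stretch (9.21 to 15.9), 8.40 in the left stretch (5.20 to 12.8), 9.54 between the stretches (7.31 to 12.2) and 12.2 in the right stretch (8.87 to 16.3), with intervals that overlap. The unshared peaks of the left arm were weak, with a median score of 87.82 against 279.74 for the shared ones there. With the chromosome cut into 3 equal parts, 54.2% of the unshared replicate 2 peaks of IV (46.3 to 61.96%) fell in the left part and 25.3% in the right part. The left share on the other nuclear chromosomes ran from 34.8% on III to 44.8% on I. Their right share ran from 33.9% on X to 48.9% on III. The central share was 20.5% on IV and ran from 16.3% on III to 26.9% on X elsewhere, so a low central share was not particular to IV. These segment comparisons were chosen after seeing the values and were not tested.

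Right-stretch sites had higher series scores. Their median was 13.0 (quartiles 7.33 and 26.2), against 7.89 (4.97 and 17.2) in the left stretch and 8.32 (5.07 and 16.5) in the rest. The right stretch held 40 of the 123 peaks in the top 25% of the IV scores, or 33.9% of its own peaks (25.4 to 43.2%). The rest had 22.4% of its peaks there (17.9 to 27.4%) and the left stretch 22.2% (12.0 to 35.6%).

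Counting only the top 50% of IV peaks by score, the right stretch held 81 and the rest 141, a density ratio of 1.75 (1.32 to 2.32, exact binomial test, p = 9.0e-05, adjusted p = 0.00072). Counting peaks within 10 kb of each other once, an alternative added after the values were known, brought the ratio to 1.37 (0.96 to 1.94, exact binomial test, adjusted p = 0.16). The top 50% of each replicate's own list, also added afterwards, gave 1.24 in replicate 1 (0.83 to 1.82, exact binomial test, adjusted p = 0.73) and 1.08 in replicate 2 (0.74 to 1.54, exact binomial test, adjusted p = 0.95). The excess of high scores in the right stretch therefore passed the threshold in the series list and in neither replicate.

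The upper tail of the replicate scores was also counted. In replicate 2, 11 of the 20 IV peaks at the ceiling lay in the right stretch, 1 in the left stretch and 8 in the rest. In replicate 1, 3 of 5 lay in the right stretch and 2 in the rest. The highest of these, at 16491390 to 16492963 in the right stretch, scored 3171.99, and its series peak scored 63.81, rank 27 on IV. The wider top 25% of each replicate list did not lean the same way in both. In replicate 1 it took in 27.5% of the right-stretch peaks (18.1 to 38.6%), 12.2% of the left-stretch peaks (4.08 to 26.2%) and 26.9% of the rest (20.8 to 33.8%). In replicate 2 the shares were 35.2% (24.2 to 47.5%), 19.4% (8.19 to 36.0%) and 22.9% (17.8 to 28.6%). Median scores did not follow the series list in replicate 1, where they were 132.55 in the right stretch, 170.34 in the left stretch and 139.84 in the rest. In replicate 2 they were 177.31, 122.20 and 141.96.

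**Figure D2:**
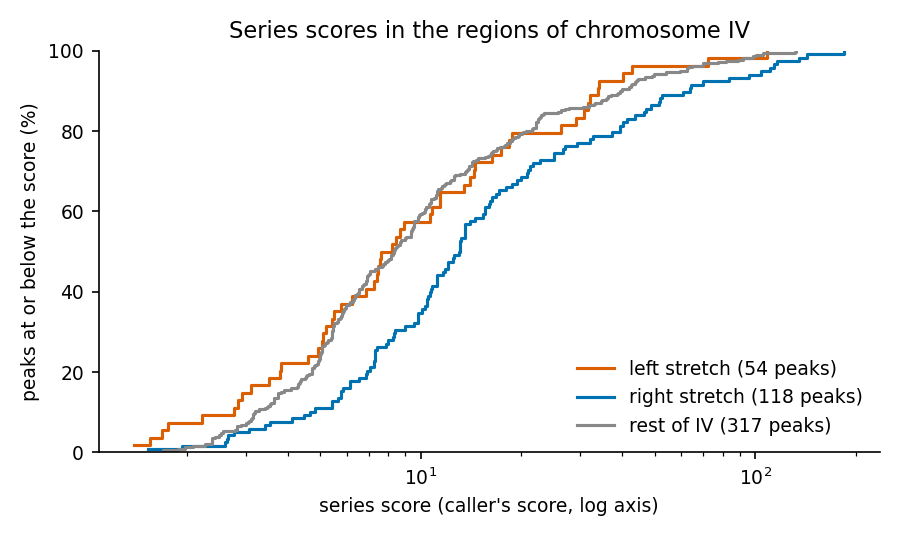
Cumulative share of series peaks (y axis, percent) at or below each series score (x axis, log scale) in the left stretch, the right stretch and the rest of chromosome IV. The right-stretch curve lies to the right of the other two over most of its range, with a median of 13.0 against 7.89 and 8.32.

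Set against the other chromosomes, IV was neither dense nor sparse as a whole. It carried 28.0 series peaks per Mb (25.5 to 30.5) over its span of 17.5 Mb, taken from base 1 to the last peak end. That was 0.93 times the density of the other 5 nuclear chromosomes together (0.84 to 1.02, exact binomial test, p = 0.13, adjusted p = 0.17). IV was denser than V, by a ratio of 1.31 (1.15 to 1.49, exact binomial test, adjusted p = 0.00016). It was sparser than III (ratio 0.78, 0.69 to 0.89, exact binomial test, adjusted p = 0.00039), I (0.85, 0.75 to 0.96, exact binomial test, adjusted p = 0.021) and X (0.77, 0.68 to 0.87, exact binomial test, adjusted p = 0.00013).

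The differences from V and X passed the threshold in each replicate, and those from I and III in neither. The IV to V ratio was 1.29 in replicate 1 and 1.395 in replicate 2 (exact binomial test, adjusted p = 0.0066 and 0.00017), and the IV to X ratio was 0.76 in both (exact binomial test, adjusted p = 0.0017 and 0.00054). Against III the ratios were 0.89 and 0.94 (exact binomial test, adjusted p = 0.24 and 0.54). Against I they were 0.87 and 0.85 (exact binomial test, adjusted p = 0.16 and 0.076). Against II the series ratio was 1.01 (0.89 to 1.16, exact binomial test, adjusted p = 0.84).

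IV peaks were narrow, with a median width near that elsewhere and a slightly higher median score. Widths ranged from 146 to 1984 bp with quartiles of 183 and 337 bp, and the median was 236 bp against 243 bp on the other chromosomes. Only 48 peaks (9.82%) were wider than 500 bp and 9 (1.84%) wider than 1000 bp. The median score was 9.48 against 8.33 elsewhere, and 53.4% of IV peaks belonged to the top 50% of all nuclear series peaks. This was not particular to IV, since V had a median of 9.38 and 55.7% of its peaks in that top 50%. Score and width rose together (Spearman's rho 0.57 over 489 peaks, as a description).

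The widest sites were not all strong. The widest, at 14032543 to 14034526 in the right stretch, spanned 1984 bp and scored 83.47, with 3100 in both replicates. The 1947-bp peak of the left arm followed, with 105.66. The next, at 12730794 to 12732709, spanned 1916 bp but scored only 13.79, rank 164 on IV, although its replicate partners scored 576.76 and 1273.3.

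Replicate support on IV was close to that of the whole list. Of the 489 series peaks, 211 (43.1%, 38.7 to 47.7%) shared at least 1 bp with a peak of each replicate, against 41.8% of all 2984 nuclear series peaks. Replicate 1 had a peak at 287 of them (58.7%, 54.2 to 63.1%), where the background is 58.6%. Replicate 2 had one at 285 (58.3%, 53.8 to 62.7%), where the background is 54.2%. Neither had one at 128 (26.2%, 22.3 to 30.3%), where it is 29.0%.

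The differences from the other chromosomes were small. The share found in both replicates was 1.63 percentage points higher on IV (-3.11 to 6.45), which includes 0. The replicate 2 share was 4.94 points higher (0.11 to 9.65), an interval that only just leaves 0 out. On X alone that share was 58.0%, near the 58.3% of IV. The replicate 1 share differed by 0.054 points (-4.76 to 4.75).

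Between the stretches and the pooled rest of IV, support varied mainly through replicate 2. Peaks found in both made up 35.2% of the left stretch (19 of 54, 22.7 to 49.4%), 42.4% of the right stretch (50 of 118, 33.3 to 51.8%) and 44.8% of the rest (142 of 317, 39.2 to 50.5%). Replicate 1 found 57.4%, 60.2% and 58.4% of the series peaks there, nearly the same share in each of these regions. Within the rest its share was 52.9% before the left stretch (44.2 to 61.4%) and 62.6% between the stretches (54.9 to 69.8%). The replicate 2 shares of these segments went the other way, 64.5% (55.9 to 72.4%) and 54.4% (46.6 to 62.0%). Replicate 2 found 44.4% in the left stretch, 61.0% in the right stretch and 59.6% in the rest. Its share in the left stretch was 15.2 points below the rest (interval of the difference -28.7 to -0.90). These differences were not tested.

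Support followed the score. In the top 25% of IV peaks, with scores of 18.7 and above, 106 of 123 (86.2%, 78.8 to 91.7%) were found in both replicates and 2 in neither. In the lowest 25%, with scores up to 5.42, 23 of 122 (18.9%, 12.3 to 26.9%) were found in both and 57 in neither. The highest score without any partner was 18.76, and of the 120 peaks above it, 105 had a partner in both replicates. The strongest peaks without any partner, at 192129 to 192346 and at 15082004 to 15082180, both scored 18.76, and the next scored 15.39.

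**Figure D3:**
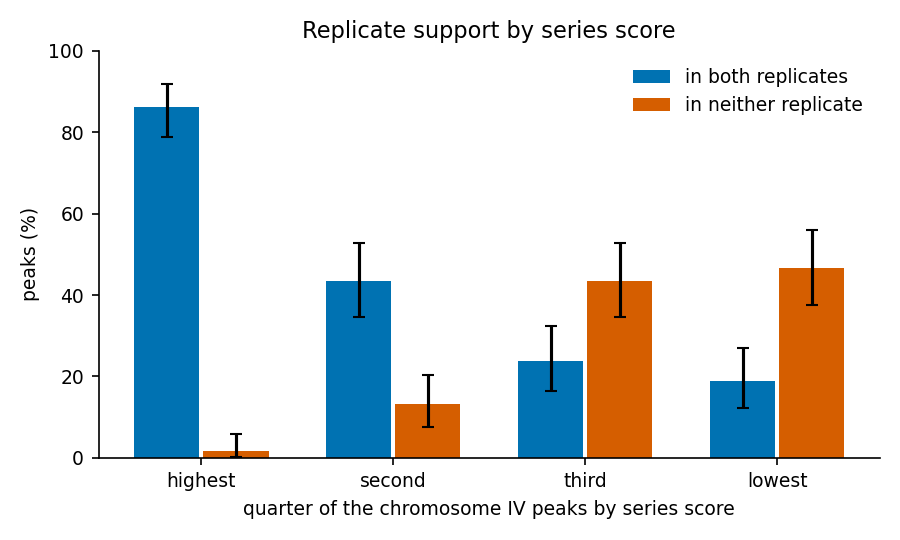
Share of chromosome IV series peaks (y axis, percent) found in both replicates or in neither, in 4 score classes of nearly equal size from highest to lowest, with exact 95% intervals as bars. The share in both fell from 86.2% in the highest class to 18.9% in the lowest.

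By series score, strong sites that only one library held came almost entirely from replicate 1. In the top 25%, 14 peaks had a replicate 1 partner only and 1 a replicate 2 partner only. A group of them lay in the left stretch, where peaks at 4720537, 4725438 and 4727897 scored 31.63, 34.11 and 40.11. Their replicate 1 partners scored 233.79, 282.25 and 352.59, and replicate 2 had no peak at any of the 3. The single replicate 2 case, at 15080856 to 15081138 with a series score of 25.09, lay in the right stretch. This split holds for the series score only. Series peaks at 16458978 and 16910304 had a replicate 2 partner only, with replicate 2 scores of 3100 and 1428.13. Their series scores were 16.76 and 16.32, below the top 25%. Over all 489 IV peaks, 76 (15.5%) had a replicate 1 partner only and 74 (15.1%) a replicate 2 partner only, with median scores of 11.1 and 6.9. Peaks with a replicate 1 partner only also scored higher on the other nuclear chromosomes, with medians of 9.78 and 5.32, so this was not particular to IV.

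Partners overlap the series peaks by definition, and differed from them in midpoint and width, more so in replicate 2. Replicate 1 midpoints lay a median of 34 bp (quartiles 15 and 76.3 bp) from the series midpoint, and its peaks were 1.31 times as wide at the median. Replicate 2 midpoints lay a median of 140 bp away (35 and 389 bp), and its peaks were 4.83 times as wide. As a result, 283 of the 285 series peaks with a replicate 2 partner lay wholly inside it, and 41 replicate 2 peaks on IV covered more than 1 series peak, against 16 replicate 1 peaks.

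Series scores tracked replicate 1 scores more closely than replicate 2 scores. Over 267 one-to-one pairs on IV, Spearman's rho with replicate 1 was 0.73, and over 226 pairs with replicate 2 it was 0.56. Below the ceiling of 3100, rho was 0.71 over 262 pairs and 0.42 over 206 pairs. These are correlations across sites of the same libraries and are given as a description.

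Some IV sites ranked higher in replicate 1 than in the series list, and others lower. Among series peaks with a replicate 1 partner in the top 25% of that list's IV scores, 67 were also in the top 25% of the series scores and 21 were not. The 21 fell on 13 replicate 1 peaks, which were wide: taken over the 21, the partner's median width was 1581 bp against 640 bp over the 67. The median series score over the 21 was 10.4. None of them lay in the right stretch, 2 lay in the left stretch and 19 in the rest. The opposite class was in the top 25% of the series scores, with a replicate 1 partner below the top 25% of that list. It held 53 peaks, of which 17 lay in the right stretch, 8 in the left stretch and 28 in the rest. How the 2 classes differ in size follows from the cutoffs and says nothing about the sites. Of all series peaks on IV, 24.1% lay in the right stretch, 11.04% in the left stretch and 64.8% in the rest. Among the 123 peaks in the top 25% of the series scores, which include the 53 and also peaks without a replicate 1 partner, the shares were 32.5%, 9.76% and 57.7%. Both classes were defined after the values were seen. The strongest replicate 1 partner among the 21 belonged to a 1440-bp series peak at 2828969 to 2830408, which scored 5.84 (rank 341 on IV), with 2346.72 in replicate 1 (rank 8) and 1423.15 in replicate 2.

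**Figure D4:**
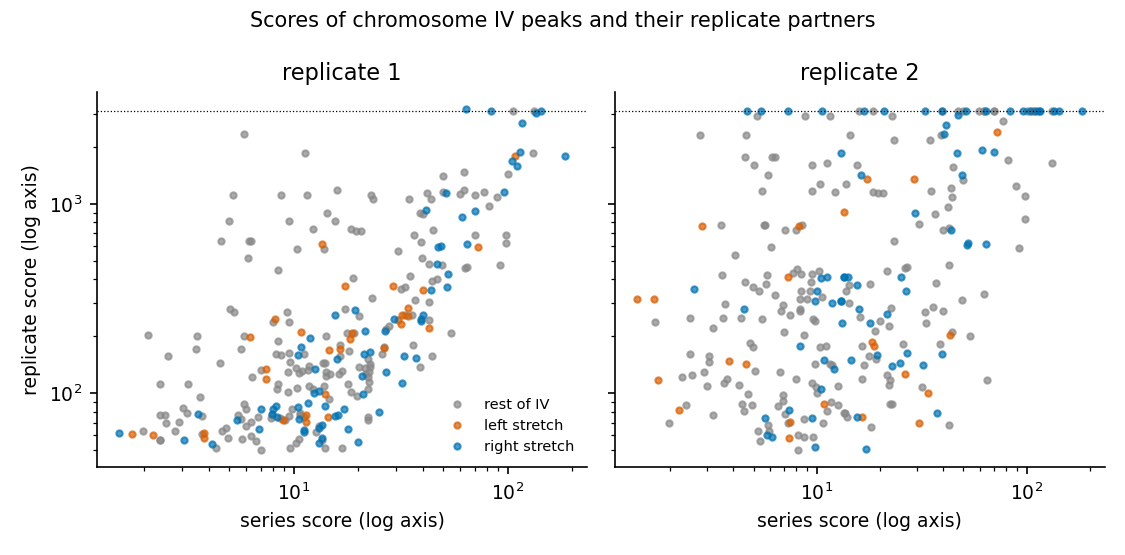
Series score (x axis, log scale) of each chromosome IV peak against the score of its overlapping peak in replicate 1 (left) and replicate 2 (right; y axes, log scale), coloured by region; the dotted line marks 3100. Replicate 1 shows a band of rising scores with a cloud of grey points above it, and replicate 2 a wider scatter with a row of points at the ceiling.

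Not every replicate peak of IV was in the series list. Replicate 1 had a series partner for 267 of its 314 peaks (85.0%, 80.6 to 88.8%), where the background over all nuclear peaks of that list is 88.6%. Replicate 2 had one for 226 of 352 (64.2%, 58.95 to 69.2%), where it is 64.3%. The replicates shared 211 of the 314 peaks by replicate 1 count (67.2%, 61.7 to 72.4%) and 186 of the 352 by replicate 2 count (52.8%, 47.5 to 58.2%), next to backgrounds of 67.6% and 54.1%. Replicate 2 alone held 115 peaks seen in no other list (32.7%, 27.8 to 37.8%), where the background is 33.0%. Replicate 1 alone held 28 (8.92%, 6.01 to 12.6%), where it is 6.96%. Most of these shares on IV were near those of the whole lists, which include IV. The widest gap was for replicate 1 peaks with a series partner, at 85.0% against 88.6%, and was not tested.

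Both replicates also shared 19 of the 314 replicate 1 peaks on IV that no series peak touched (6.05%, 3.68 to 9.29%), where the background is 4.41%. The first lay at 15409286 to 15409819 and scored 245.41 in replicate 1 and 278.81 in replicate 2. The next, at 5691033 to 5691545 in the left stretch, scored 227.53 and 557.37, and the third, at 1831005 to 1831702, scored 187.36 and 228.22. The strongest of the 19 ranked only 98 among the replicate 1 peaks of IV.

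On IV the series list began apart from the replicate lists, and the lists ended in overlapping peaks. At the left end, replicate 1 had a 211-bp peak from base 1 with a score of 161.4 and replicate 2 a 672-bp peak from base 2 with 398.23, and the first series peak began only at 17351. Towards the right, the last series peak, at 17492816 to 17493051, scored 3.53, and its partners scored 200.61 and 422.64. The last replicate 2 peak sets the span used here, and no chromosome length was used. The replicate peaks at base 1 and base 2 had no series peak, and their scores lay above the IV medians of their lists, 139.94 and 147.46.

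TAF-1 sites on IV were unevenly spaced, with tight chains between long stretches without a peak. The median distance between neighbouring series peaks, edge to edge, was 19.6 kb (quartiles 3.81 and 48.4 kb). Of 488 distances, 81 (16.6%, 13.4 to 20.2%) were within 1 kb, against 13.4% on the other nuclear chromosomes, a difference of 3.22 points (-0.12 to 7.01) whose interval includes 0. Within 1 kb, 27 of the 118 distances that began in the right stretch were that short (22.9%, 15.7 to 31.5%), 4 of 54 in the left stretch (7.41%, 2.06 to 17.9%) and 50 of 316 in the rest (15.8%, 12.0 to 20.3%).

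**Figure D5:**
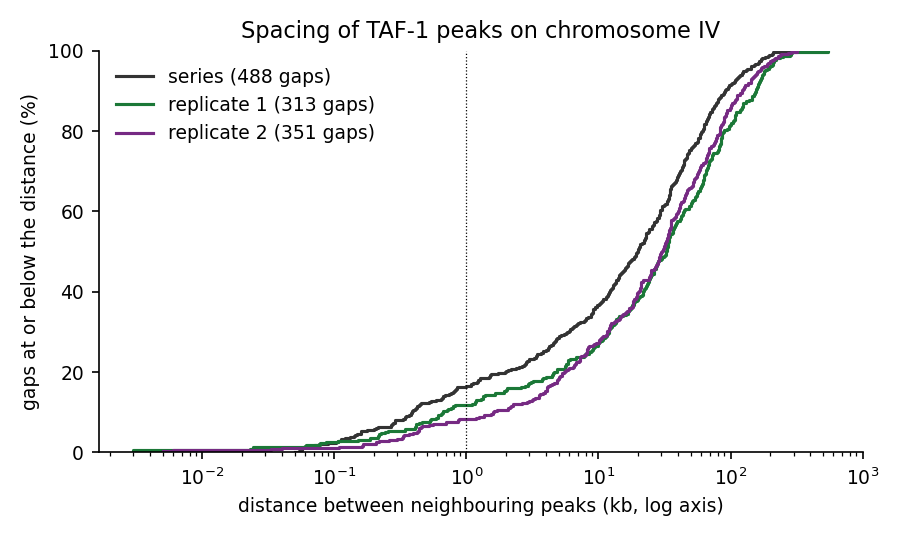
Cumulative share (y axis, percent) of edge-to-edge distances between neighbouring TAF-1 peaks on chromosome IV (x axis, kb, log scale) for the 3 lists; the dotted line marks 1 kb. At 1 kb the series list had reached 16.6%, replicate 1 11.8% and replicate 2 8.26%.

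Many of these close pairs were a single peak in replicate 2. Of the 81 pairs, 58 fell under one replicate 2 peak and 20 under one replicate 1 peak, and in 38 pairs both members were found in both replicates. Chained together at 1 kb, the 489 peaks made 408 groups, of which 357 were single peaks, 36 were pairs and 10 held 3 peaks. The closest pair, 50 bp apart in the left stretch (5299110 to 5299269 and 5299320 to 5299501), was also among the weakest, with scores of 1.68 and 1.39. The next had gaps of 54 bp (at 2397724) and 55 bp (at 17492441).

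The longest chains lay in the right stretch. One held 9 series peaks over 5590 bp at 15076591 to 15082180, all with scores between 11.18 and 25.09, of which 2 were found in both replicates and 2 in neither. It made the 100-kb window from 15000001 the densest of IV, with 12 series peaks, 6 replicate 1 peaks and 5 replicate 2 peaks. The other held 7 peaks over 4511 bp at 14476558 to 14481068, and ended in the strong 113.99 site named above. Replicate 2 covered all 7 with a single 5228-bp peak at the ceiling, while replicate 1 resolved 6 of them, with scores from 72.29 to 1890.48.

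Another chain, at 11073067 to 11075783, differed from these. It had 6 series peaks, none of which overlapped a peak in either replicate, with scores from 1.88 to 9.35. It lay in the second densest 100-kb window, from 11000001, with 11 series peaks. A chain of 4 at 9045809 to 9048549, by contrast, was found in both replicates at every member, each replicate covering the 4 with one wide peak of 3019 and 3902 bp. These chains were chosen after their values were seen.

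Of 175 windows of 100 kb, 22 had no series peak, 41 no replicate 1 peak and 30 no replicate 2 peak. Counted per Mb, the series list had the fewest peaks at 10 to 11 Mb, with 15, followed by 17 at 6 to 7 Mb, 18 at 7 to 8 Mb and 19 at 5 to 6 Mb. The low bins thus lay in and beside the left stretch and in the middle of IV. The longest single gap ran from 7039694 to 7319911 (280 kb), just beyond the left stretch, where replicate 2 had 2 peaks and replicate 1 none. The second, from 9853131 to 10129142 (276 kb), was empty in all 3 lists. The third, from 16170917 to 16382062 (211 kb), lay inside the right stretch and held 2 replicate 2 peaks. The right stretch thus held both the longest chain and one of the longest gaps of IV.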

How the data were processed

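Per the submitters' processing notes, the authors aligned reads with BWA to the ce10 build; no version is recorded there. Positions are on WormBase WS220, per the file headers. The deposited lists name MACS (replicates) and MACS v2 (series) as callers, and each peak has a deposited score of unstated scale. Cutoffs, input use and pooling behind the series list: not given in the sources used here. Input libraries were not analysed here.

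From these lists, peaks were placed in a region by midpoint, and matched when they overlapped by at least 1 bp. One-to-one pairs were taken in order of shared bases. In place of its length, each chromosome was taken to end at its last peak in the 3 lists. The 8 density comparisons used two-sided exact binomial tests with Benjamini-Hochberg adjustment, shares exact Clopper-Pearson intervals, densities exact Poisson intervals, and differences of shares Newcombe intervals. The density ratio and the overlap share were tested on simulated peaks placed independently. The intervals were not tested, and close peaks were not simulated. The software was Python 3.11.15 with scipy 1.17.1, numpy 2.4.6, pandas 2.3.3 and, for plots, matplotlib 3.10.9. Sites were named as the 10 highest scores on IV, the 3 highest in each region, the 3 widest, the 3 highest found in no replicate, the 3 closest pairs, the 3 longest gaps, the densest windows, the first and last, the 3 highest replicate 1 peaks shared with replicate 2 but not the series list, and the highest of each replicate; others were chosen after their values were seen. Alternatives covered single lists, peaks in both replicates, score, overlap and edge rules, and close peaks counted once. The members, stretches and rules were chosen with earlier results of these data known.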

Additional observations from a re-analysis of the deposited data

How the results depend on the processing

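Of 49 recomputed values, 35 kept their direction and their side of the threshold, or stayed within the interval of the reported value. The density ratio of the right stretch was 0.88 in replicate 2 alone, on the other side of 1, and 1.27 in replicate 1. Among higher-scoring peaks it was past the threshold, at 1.75 (top 50%) and 1.72 (top 25%; exact binomial adjusted p = 0.00072 and 0.047, the second chosen after seeing the data), and lay between 1.04 and 1.24 under the other alternatives run on whole lists or replicates, and at 1.37 where close high-scoring peaks were counted once. The ratio of the left stretch passed it at 0.735 with edges moved outwards by 0.25 Mb (exact binomial adjusted p = 0.0425). Over series peaks found in both replicates it was 0.60 (0.35 to 0.98, exact binomial adjusted p = 0.11). It was 1.04 in the top 50% of replicate 1, an alternative also added after the values were known. The ratio of IV to the other chromosomes was 1.002 in the top 50% by score. The share found in both replicates was 3.68% with a 50% reciprocal overlap, where replicate 2 widths limit what can match, 18.8% with midpoints within 100 bp and 64.9% in the top 50%. Neighbours within 1 kb made up 8.26 to 11.8% in single replicates. The median width was 416.5 and 1182 bp in the replicates and 296 bp in the top 50%. The causes of the other shifts were not tested. No paired analysis was possible because no peak list of the input libraries was analysed here. With no read depth at hand, a missing peak may only be one below the cutoff.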
